A study of Rattus norvegicus with 12 samples.

Results

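L-DOPA was compared with saline in the dopamine-depleted striatum of rats, on 6 of the 12 arrays of the study: 3 of the lesioned side after L-DOPA and 3 of the lesioned side after saline. The members are the arrays that carry these 2 labels. All rats were male Wistar rats in which 6-hydroxydopamine (6-OHDA), a toxin taken up by catecholamine neurons, had been injected into the left medial forebrain bundle. Every rat had also received methamphetamine (METH) once, at 3 mg/kg, and had turned at least 7 times per min. Treatment began 7 days after that test and was given once daily for 7 days, as saline or as L-DOPA at 100 mg/kg, to 3 animals each. L-DOPA followed benserazide, which blocks its conversion to dopamine outside the brain. Whether the saline rats received benserazide, and how long after the last dose the tissue was taken, is not given in the sources used here. The other 6 arrays, of the non-lesioned side after saline and of the lesioned side after L-DOPA with zonisamide at 50 mg/kg, entered the fit to help estimate the spread.

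The striatum receives dopamine from the midbrain, and its main output cells are spiny neurons. Direct-pathway spiny neurons carry the D1 receptor and make dynorphin and substance P, whereas indirect-pathway spiny neurons carry the D2 receptor and make enkephalin. After dopamine loss D1 receptor signalling becomes hypersensitive, so that L-DOPA, which surviving aromatic amino acid decarboxylase converts to dopamine, drives strong signalling through cyclic AMP and the MAP kinases. Repeated L-DOPA in this model is known for abnormal involuntary movements and for a rise of prodynorphin. Behaviour after L-DOPA is not part of these files.

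Levels are log2 signals relative to the 75th percentile of each array, so a level of 0 equals that percentile and differences of levels are log2 changes. A feature is a gene, represented by its brightest probe, or a probe without a symbol. It was tested where its probe was well above background on all 3 arrays of either group, and it was called at an adjusted p under 0.05. Spiny neuron genes were checked against the tissue label and stood high on all 6 arrays. Ppp1r1b, which encodes the dopamine-regulated phosphatase inhibitor DARPP-32, was at 5.48, 5.43 and 5.25 with saline and at 5.09, 4.68 and 4.70 with L-DOPA. The share of probes above background ran from 70.1% to 74.0%, and array pairs correlated at 0.94 to 0.984. The L-DOPA array of replicate 3 had the widest spread between repeated spots of a probe (24.2%), and the saline array of replicate 3 the narrowest (3.74%).

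Of 19315 features tested, 91 were called (0.471%). Of these, 70 were higher with L-DOPA (0.362% of all tested) and 21 lower (0.109%). An unadjusted p under 0.05 was reached by 2179 features (11.3%), 1157 higher (5.99%) and 1022 lower (5.29%), where 966 would be reached under uniform p values. The log2 changes of the called features had a median of 1.70 among the higher and -1.58 among the lower, beside -0.03 over all features, of which 46.8% had values above 0. Only 46 of the 91 carry a gene symbol, 36 higher and 10 lower. The fit borrows its spread from all 4 groups: with only the 6 arrays compared, no feature was called (2587 at an unadjusted p under 0.05, smallest adjusted p = 0.053 with limma). None was called either with the slide as a fixed block (1646 at an unadjusted p under 0.05) or with the Ttr level of each array as a covariate (1155).

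**Figure D1:**
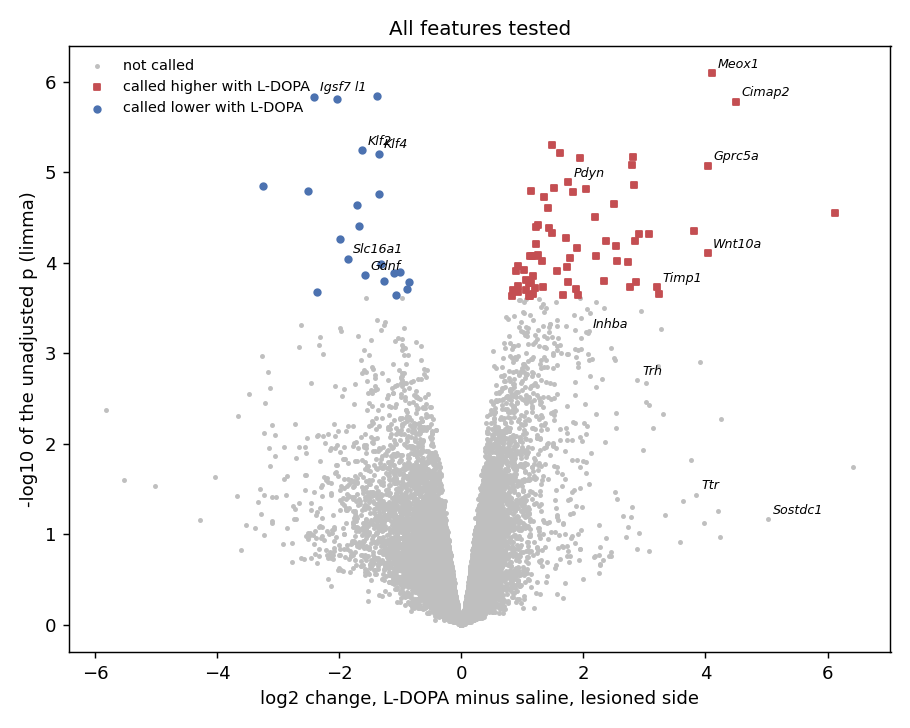
Each point is 1 of the 19315 features, with the log2 change (L-DOPA minus saline, lesioned side) on the horizontal axis and the -log10 of limma's unadjusted p on the vertical axis. The 70 features called higher (squares) and the 21 called lower (circles) are coloured, and Ttr and Sostdc1, with changes of 3.85 and 5.02, lie far to the right without being called.

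Choroid plexus RNA has to be read beside every rise. Ttr, the transthyretin transcript that dominates this ventricular tissue, was at -0.74, 4.35 and 3.30 with saline and at 4.31, 7.27 and 6.89 with L-DOPA. Sostdc1, a secreted BMP and Wnt antagonist of the choroid plexus, was at -6.58, -3.77 and -4.29 with saline and at -3.23, 2.63 and 1.02 with L-DOPA. L-DOPA replicates 2 and 3 were thus the highest arrays, while L-DOPA replicate 1 and saline replicate 2 had nearly equal Ttr. All 12 tested members of the choroid plexus list had values above 0 (median 2.53), none was called, and their mean level ran from -4.18 to -2.76 over the saline arrays and from -2.65 to 1.07 over the L-DOPA arrays. Of the 12, 9 were above background on all saline arrays and 12 on all L-DOPA arrays.

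Of 6 cortical projection neuron genes tested, 4 had values above 0, none was called and the median was 0.15. Neurod6, a transcription factor of cortical projection neurons, was at -5.56, -4.04 and -6.27 with saline and at -2.50, -6.20 and -6.23 with L-DOPA, with L-DOPA replicate 1 the highest array and saline replicate 2 the next. Neurod2, of the same neurons, was at -4.01, -2.92 and -5.85 with saline and at -2.15, -5.24 and -5.30 with L-DOPA, with the same 2 arrays the highest. Fezf2 (-2.44) and Nptx1 (0.64) were also highest on L-DOPA replicate 1. In contrast, Camk4 was highest on saline replicate 3 (1.77) and Lamp5 on L-DOPA replicate 3 (0.12). Neurod6 and Neurod2 were named after their values were seen. In tissue pieces of this kind, fewer cells of a type and less RNA per cell cannot be told apart.

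**Figure D2:**
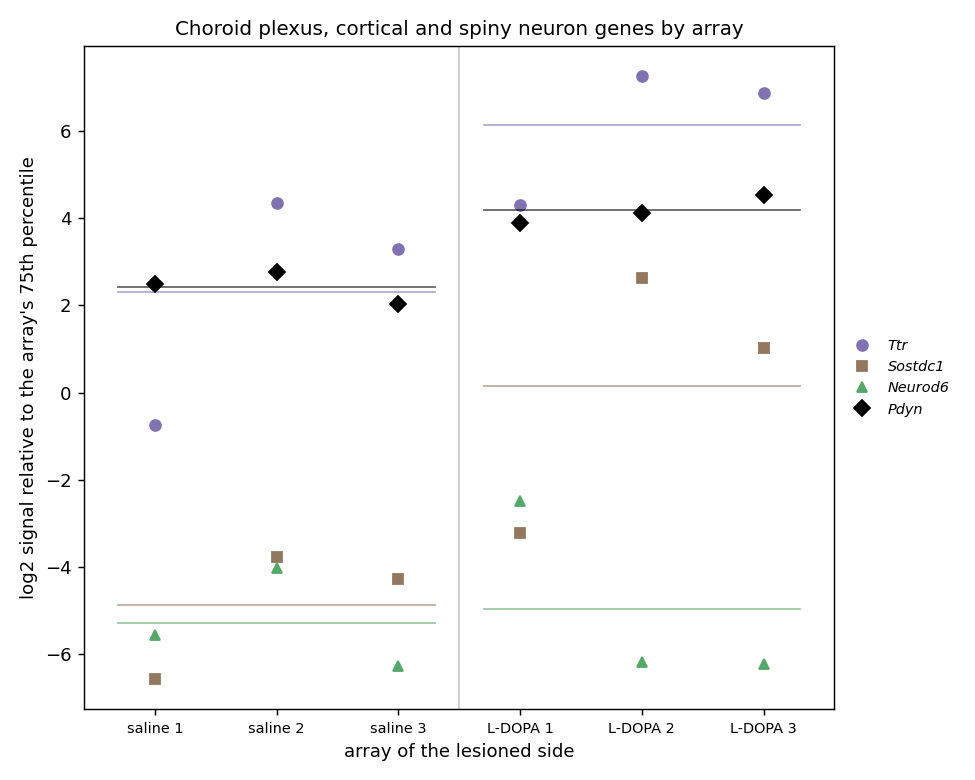
The vertical axis gives the log2 level relative to the 75th percentile of the array and the horizontal axis the 6 arrays, with a line at each group mean. Ttr and Sostdc1 are highest on L-DOPA replicates 2 and 3, Neurod6 is highest on L-DOPA replicate 1, and Pdyn is higher on the 3 L-DOPA arrays (3.89 to 4.53) than on the 3 saline arrays (2.03 to 2.78).

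With the Ttr level as a covariate, the 46 called genes with a symbol kept a median of 91.2% of their log2 change (75.8% to 116%), and their standard errors grew by a median factor of 1.25. None of the 46 was called in that fit (smallest adjusted p = 0.103 with limma). Between the pair of arrays with nearly equal Ttr, L-DOPA replicate 1 and saline replicate 2, the median difference was 1.36 over the 70 higher features and -1.10 over the 21 lower ones. Slide 1 held replicate 1 of both groups and slide 2 held replicate 2 of both. Within slide 1 the median difference was 1.33 over the higher and -1.29 over the lower features, and within slide 2 it was 1.64 and -1.54. The groups of all 91 features lie apart because of how the features were chosen, so any such pair of arrays must differ in the called direction. These medians therefore give sizes only and do not bear on choroid plexus content or slide.

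Prodynorphin was the only called gene among the 6 markers of spiny neurons and dopamine cells singled out for naming. Pdyn, the precursor of the dynorphin opioid peptides of direct-pathway neurons, was at 2.48, 2.78 and 2.03 with saline and at 3.89, 4.12 and 4.53 with L-DOPA. The groups did not overlap, as in all 91 called features. The change was 1.75 ± 0.22 (limma's SE, adjusted p = 0.015), with differences of 1.41 and 1.35 within the 2 shared slides. Tac1, the substance P precursor of the same cells, was at 4.53, 4.62 and 4.06 with saline and at 5.07, 4.60 and 4.51 with L-DOPA, and the groups overlapped (0.32 ± 0.24), with 0.63 on its second probe. Drd1, the D1 receptor, had a change of 0.17 ± 0.20. Penk, which encodes proenkephalin in indirect-pathway neurons, lay between 4.81 and 5.19 on the saline arrays and between 4.49 and 5.31 on the L-DOPA arrays (-0.05 ± 0.21). Drd2, the D2 receptor, had a change of -0.12 ± 0.21 and Th, the rate-limiting enzyme of dopamine synthesis, of -0.24 ± 0.31.

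Of 9 direct-pathway genes tested, 5 had values above 0 and 1 was called, and the median was 0.09. Among the 9, 1 had an unadjusted p under 0.05 with a higher and 1 with a lower level (22.2%, beside 11.3% of all features). Chrm4, the muscarinic receptor that opposes D1 signalling in these cells, was at 1.40, 1.84 and 1.95 with saline and at 1.60, 0.21 and 0.87 with L-DOPA, without being called. Of 6 indirect-pathway genes 1 had a value above 0 and none was called (1 at an unadjusted p under 0.05), with a median of -0.19. Adora2a, the adenosine receptor of these cells, had values of 2.37, 2.41 and 2.55 with saline and of 2.26, 2.06 and 1.97 with L-DOPA (-0.35 ± 0.22, adjusted p = 0.602). Its groups did not overlap, as in 22.6% of all features.

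Genes that both kinds of spiny neuron share lay mostly below 0. Of 15 tested, 11 had values below 0, 1 was called lower and 5 had an unadjusted p under 0.05 with a lower level, beside 5.29% of all features. The median was -0.32, with -0.31 and -0.45 within slides 1 and 2. The called gene was Gpr155, a multi-pass membrane protein enriched in spiny neurons, at 2.85, 2.81 and 2.64 with saline and at 1.57, 1.88 and 1.82 with L-DOPA (-1.01 ± 0.17, adjusted p = 0.040). A second tested probe of Gpr155 differed by -0.70. Pde1b, a calcium-activated phosphodiesterase, was at 1.67, 1.73 and 1.47 with saline and at 1.08, 0.76 and 0.43 with L-DOPA. Rasgrp2, an exchange factor for Rap proteins, was not called either (-1.12 ± 0.39, adjusted p = 0.311). In Pde1b and Rasgrp2 L-DOPA replicate 1 lay closest to the saline arrays. Shared spiny neuron genes had a mean level of 3.57 to 3.81 over the saline arrays and 3.25 to 3.34 over the L-DOPA arrays, while choroid plexus genes moved the other way, and the part of tissue content in this was not tested.

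Of 14 interneuron genes 3 had values above 0, none was called and the median was -0.35. Among the 14, 2 had an unadjusted p under 0.05 with a lower level, beside 5.29% of all features. Sst, the somatostatin precursor of one interneuron class, was at 3.02, 3.19 and 3.34 with saline and at 1.57, 2.51 and 0.46 with L-DOPA (-1.67 ± 0.71, adjusted p = 0.418). Cck, a peptide precursor abundant in cortex, was at 2.08, 3.40 and 2.27 with saline and at 6.06, 3.68 and 4.78 with L-DOPA. Its highest array was L-DOPA replicate 1, the array on which Neurod6 was also highest. L-DOPA replicate 3, the next highest for Cck (4.78), had Neurod6 at -6.23. Saline replicate 2, the next highest for Neurod6 (-4.04), had Cck at 3.40. The part of cortical tissue was not tested.

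Of the called rises with a symbol, 7 began at background. Cimap2, which encodes a protein associated with ciliary microtubules, was at -8.67, -8.73 and -8.68 with saline, where no array was above background, and at -5.22, -3.52 and -3.82 with L-DOPA. Each saline value was raised to at least the lowest signal marked as above background for any probe of its array. By this ratio its level was 14.1-fold higher with L-DOPA. The lowest signal of an array is not the detection limit of a given probe, so the ratio is not a strict bound. The adjusted p of 0.0064 (limma) belongs to the fitted change of 4.50, which used the saline values below background, and not to this ratio. Meox1, a homeobox transcription factor of the somites, was at -8.35, -8.90 and -8.79 with saline and at -5.48, -4.30 and -3.95 with L-DOPA. By the same ratio Meox1 was 9.99-fold higher, and its adjusted p of 0.0064 (limma) belongs to the fitted change of 4.10. A second probe of Meox1, which was too dim to be tested, differed by 0.37. Cryba2, a crystallin, was 14.0-fold higher, which is also its fitted fold, because its saline values already lay above the lowest signals. Stac3, an adaptor of muscle calcium channels, was 6.67-fold higher, and Prdm1, a transcriptional repressor, 5.10-fold. Hsf2bp, a partner of a heat shock factor, was 5.06-fold higher, again its fitted fold, and Kcne3, a potassium channel subunit, 3.94-fold. Over other ways of processing or with arrays left out, the smallest log2 changes were 1.13 in Cimap2, 0.90 in Meox1 and 1.18 in Cryba2. They were 0.65 in Stac3, 0.51 in Prdm1, 0.81 in Hsf2bp and 0.39 in Kcne3. In these 7 genes no saline array was above background, so they passed the filter through the L-DOPA arrays alone. In Prdm1 a dim second probe differed by 0.22, as did one of Hsf2bp by 0.85.

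Ligands, receptors and small GTPases were also among the called rises. Wnt10a, a secreted Wnt ligand, was at -4.32, -3.24 and -4.70 with saline and at -0.54, -0.17 and 0.56 with L-DOPA. The groups lay apart, as in all 91 called features, with a change of 4.03 ± 0.63 (adjusted p = 0.033). Gprc5a, an orphan receptor induced by retinoic acid, was at -6.55, -5.90 and -7.21 with saline, above background on 1 of the 3 arrays, and at -2.03, -2.03 and -3.50 with L-DOPA. With its saline level mostly at background, the fitted change was 4.03 ± 0.49 (adjusted p = 0.013), and it was as large within slide 1 (4.52) as within slide 2 (3.87). Rasl10a, a Ras-like GTPase, was at -1.55, -1.26 and -2.01 with saline and at 0.36, 0.69 and 1.23 with L-DOPA (2.37 ± 0.36, adjusted p = 0.028). Chrna5, a nicotinic acetylcholine receptor subunit, was at -5.28, -5.12 and -5.17 with saline and at -2.50, -3.56 and -2.93 with L-DOPA (2.19 ± 0.31, adjusted p = 0.022). Here L-DOPA replicate 1 was the highest array. That array had the lowest choroid plexus level and the highest cortical level of its group, and their part was not tested.

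Channels, adaptors and regulators followed at smaller sizes. Kcnk13, a potassium channel, was at -0.35, -0.39 and -0.54 with saline and at 0.96, 1.76 and 1.72 with L-DOPA (1.91 ± 0.34), and its second probe differed by 2.12. Plagl1, an imprinted zinc finger factor, rose by 2.85 ± 0.43 (adjusted p = 0.028) with 2.74 on its second probe. Reln, which encodes the extracellular matrix protein reelin, was at -0.69, -0.74 and -1.01 with saline and at 0.14, 0.61 and 0.47 with L-DOPA (1.22 ± 0.18, adjusted p = 0.025). Bhlhe40, a repressor of the circadian clock, rose by 1.32 ± 0.21 and Hic1, also a transcriptional repressor, by 1.33 ± 0.23. Sntg2, a syntrophin scaffold protein, was at -3.83, -3.59 and -4.16 with saline and at -2.48, -2.45 and -2.20 with L-DOPA (1.48 ± 0.17, adjusted p = 0.012). Plekha4, Sbsn, Arhgap25, Eva1c and Spata31d1 rose by 1.78, 1.74, 1.73, 1.72 and 1.18. The other probe of Arhgap25 was too dim to be tested and differed by -0.18.

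Immune and surface genes were also among the called rises. Tnfrsf1b, the type 2 receptor of tumour necrosis factor, was at -4.44, -4.39 and -4.01 with saline and at -3.19, -2.66 and -2.75 with L-DOPA (1.41 ± 0.19, adjusted p = 0.018). Ifitm3, an interferon-induced membrane protein, rose by 1.15 ± 0.18, and Tap2, a peptide transporter for MHC class I, by 1.11 ± 0.19. The smallest called rises were in Slfn2 (1.07), a regulator of lymphocyte quiescence, Lmo1 (0.94), a LIM-only transcription cofactor, C1galt1 (0.94), an O-glycan synthase, Nmnat2 (0.90), an NAD-synthesizing enzyme of axons, and Ggact (0.85). Gatad2b, a subunit of the NuRD chromatin complex, rose by 1.13 ± 0.20. Microglial and MHC genes as a list had 8 of 17 values above 0, none called (2 at an unadjusted p under 0.05) and a median of -0.09. Within that list Itgam was at -4.70, -3.10 and -3.62 with saline and at -2.42, -1.46 and -1.59 with L-DOPA, and Tmem119, a microglial surface protein, at -0.44, -0.44 and -0.92 against -1.51, -1.02 and -1.48. The groups did not overlap in either gene, as in 22.6% of all features, and the differences ran in opposite directions. A second probe of Tmem119 that passed the filter differed by -0.35.

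**Figure D3:**
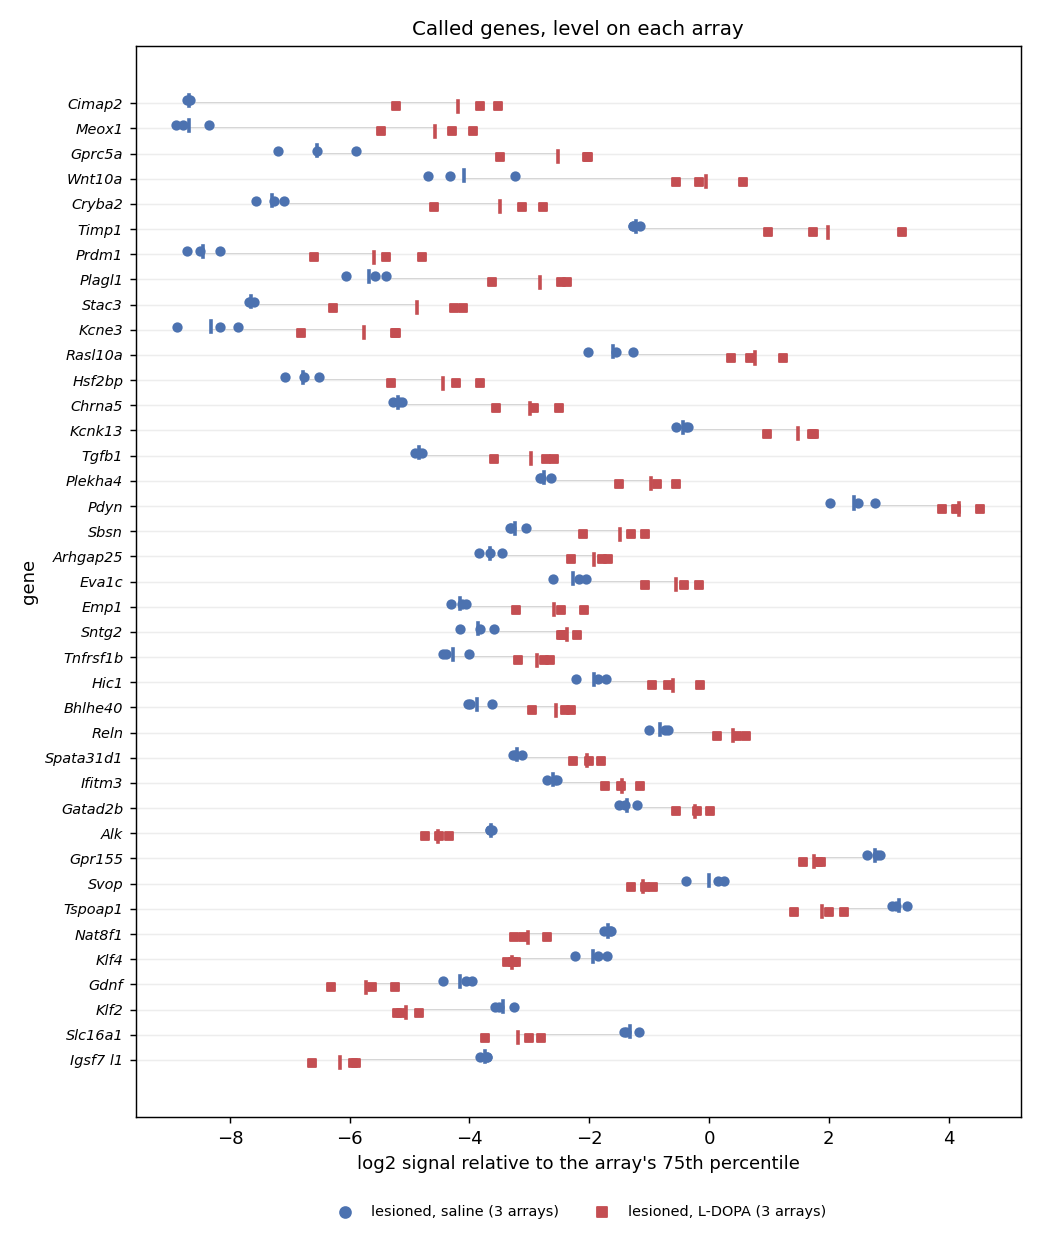
Levels (log2, relative to the 75th percentile of the array) of called genes with a symbol, in order of change: those of the largest rises that are reported here and the 10 falls. Circles are the 3 saline arrays, squares the 3 L-DOPA arrays and vertical bars their means. As in all 91 called features, no gene has overlapping groups, which follows from how they were chosen. The lowest L-DOPA array in most of the rises is replicate 1.

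L-DOPA replicate 1 was the L-DOPA array closest to saline in 30 of the 36 called rises and in 6 of the 10 called falls with a symbol. It was also the L-DOPA array with the lowest choroid plexus level and the highest cortical one, and their part in this was not tested. Without it 211 features were called, 138 higher and 73 lower, and 78 of these were among the 91. Without any other single array of the 2 groups the number fell to between 7 (without saline replicate 1) and 25 (without saline replicate 3).

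**Figure D4:**
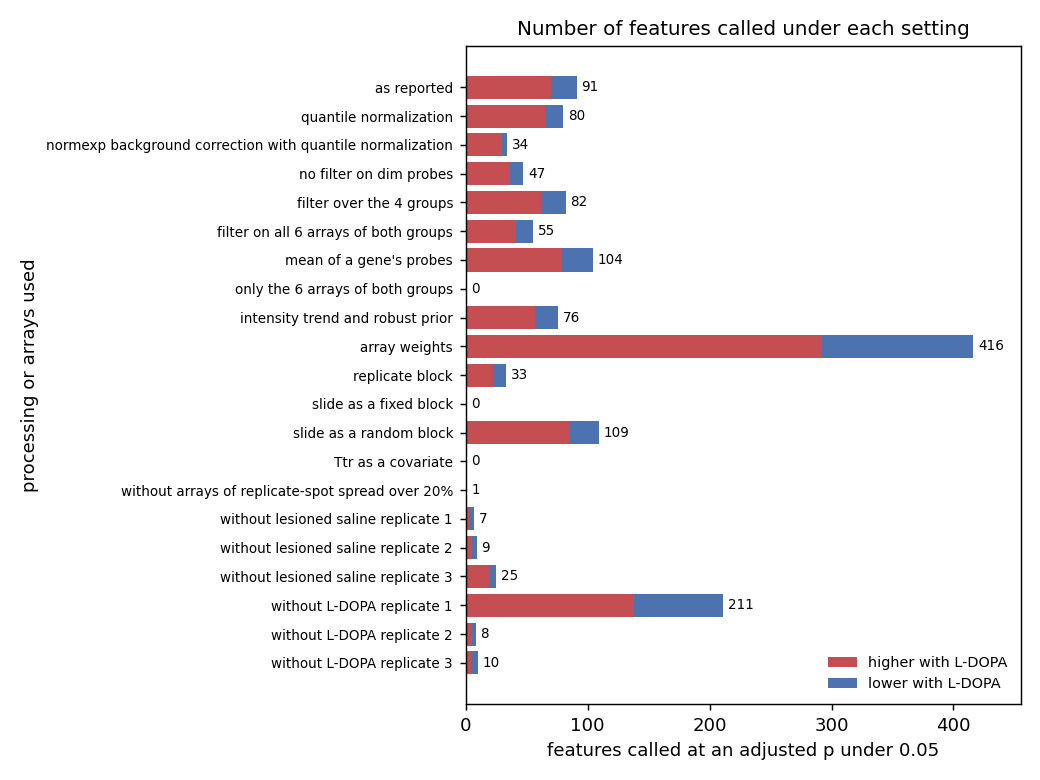
Each bar gives the number of features called at an adjusted p under 0.05 under 1 way of processing or with 1 array left out, divided into higher (red) and lower (blue) with L-DOPA. The number is 91 as reported and runs from 0 with only the 6 arrays compared to 416 with array weights.

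The promoters of the called genes were searched because cyclic AMP and MAP kinase signalling is known to act through the CRE and AP-1 elements. RefSeq promoters (GRCr8) were found for 40 of the 46 called genes with a symbol, 33 higher and 7 lower, and the 250 bases before each start were searched on both strands. The AP-1 letters TGACTCA were found in 4 of the 33 promoters of called rises (12.1%), in 0 of the 7 of called falls, and in 3.40% of the 8996 promoters of tested genes. With any middle base (TGANTCA), which includes the former, the counts were 7 of 33 (21.2%), 0 of 7 and 4.80%. The full CRE letters TGACGTCA were found in 1 of 33 (3.03%) and in 2.91% of tested genes, and the shorter CRE letters TGACG, which the full element contains, in 10 of 33 (30.3%) and in 27.3%. The letters CACCC, to which Krüppel-like factors bind, were found in 21 of 33 (63.6%), in 4 of 7 and in 56.7%. The EGR letters GCGTGGGCG were found in 1 of 33 (3.03%), in 0 of 7 and in 0.878%. The sequences below are 60 bases of the promoters with TGACTCA or TGACGTCA, shown because they hold these matches, 5′ to 3′ along the gene, with the motif or its reverse complement in capitals. A match is a description of letters and not a site of binding.
Cryba2, chr9:83899192-83899251, minus strand: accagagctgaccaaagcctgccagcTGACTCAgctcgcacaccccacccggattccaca
Emp1, chr4:169943992-169944051, plus strand: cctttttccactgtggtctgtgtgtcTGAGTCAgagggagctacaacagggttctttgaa
Tnfrsf1b, chr5:162387564-162387623, minus strand: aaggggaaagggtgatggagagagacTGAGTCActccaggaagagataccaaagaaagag
Slfn2, chr10:68450648-68450707, plus strand: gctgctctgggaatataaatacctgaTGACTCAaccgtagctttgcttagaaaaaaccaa
Sbsn, chr1:95106295-95106354, plus strand: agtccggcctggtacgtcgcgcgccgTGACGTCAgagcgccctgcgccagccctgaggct

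The first base of the motif lies 94 bases before the start in Cryba2, 212 in Emp1, 186 in Tnfrsf1b, 187 in Slfn2 and 69 in Sbsn.

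Timp1, an inhibitor of matrix metalloproteinases, and the ligand gene Tgfb1 were both called higher. Timp1 was at -1.26, -1.27 and -1.15 with saline and at 0.99, 3.22 and 1.74 with L-DOPA (3.21 ± 0.56, adjusted p = 0.047). The saline arrays lay close together, and the L-DOPA arrays were spread more widely. Tgfb1, the ligand TGF-beta 1, was at -4.79, -4.84 and -4.91 with saline and at -3.59, -2.59 and -2.73 with L-DOPA (1.88 ± 0.33, adjusted p = 0.048). In both genes replicates 2 and 3 of L-DOPA, the arrays with the most choroid plexus RNA, were the highest, and its part was not tested beyond the Ttr covariate, with which Timp1 had a change of 2.85 ± 0.72.

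Of 16 matrix proteases and inhibitors tested, 13 had values above 0, 2 were called higher, Timp1 among them, and 7 had an unadjusted p under 0.05 with a higher level, beside 5.99% of all features. The median was 0.57, with 0.16 within slide 1 and 0.83 within slide 2. Plaur, the urokinase receptor, was at -6.51, -7.50 and -6.05 with saline and at -5.21, -4.30 and -4.73 with L-DOPA, without being called. Mmp13, a collagenase, was at -6.12, -6.40 and -5.74 with saline and at -6.93, -7.01 and -7.07 with L-DOPA, a difference of the opposite sign. Of 24 genes of activins, TGF-beta and their receptors and antagonists, 12 had values above 0 and 2 were called higher, Tgfb1 among them (the median was 0.02). Of the 24, 4 had an unadjusted p under 0.05 with a higher and 3 with a lower level (29.2%, beside 11.3% of all features). Inhba, the activin A subunit, was at 1.73, 1.34 and 1.64 with saline and at 2.61, 4.48 and 3.83 with L-DOPA (2.07 ± 0.42, adjusted p = 0.079). Acvr1, a receptor of this family, had a value of 0.93 ± 0.21 and Bmp2, a ligand, of -0.72 ± 0.19.

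Reactive astrocyte genes had a higher median than the neuronal, microglial and oligodendrocyte lists. The choroid plexus (2.53) and blood cell (0.75) lists had higher medians still. Of 18 tested, 14 had values above 0 and 2 were called higher, Timp1 and Emp1. An unadjusted p under 0.05 with a higher level was reached by 8, beside 5.99% of all features. The median was 0.74, with 0.37 within slide 1 and 1.12 within slide 2. Emp1, an epithelial membrane protein, was at -4.06, -4.12 and -4.30 with saline and at -3.22, -2.08 and -2.47 with L-DOPA (1.57 ± 0.26, adjusted p = 0.040). Lcn2, the siderophore-binding protein lipocalin 2, was at -5.24, -5.39 and -4.52 with saline and at -2.92, -1.55 and -1.84 with L-DOPA (2.95 ± 0.56, adjusted p = 0.061). Gbp2, an interferon-induced GTPase, had a value of 1.07 ± 0.22 and Cxcl10, an interferon-induced chemokine, of 1.53 ± 0.43, neither called. Gfap, the astrocyte filament protein and named outside the rule, was at -2.05, -0.31 and -1.36 with saline and at -1.73, 0.90 and -0.51 with L-DOPA, and the groups overlapped. Homeostatic astrocyte genes had 7 of 14 values above 0, none called (2 at an unadjusted p under 0.05) and a median of 0.01.

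Endothelial and angiogenic genes lay above 0 in 14 of 18 cases, and none was called. Of the 18, 8 had an unadjusted p under 0.05 with a higher level, beside 5.99% of all features. The median was 0.43, with 0.14 within slide 1 and 0.79 within slide 2. Kdr, the receptor of vascular endothelial growth factor, was at 0.65, 0.35 and 0.57 with saline and at 1.34, 2.34 and 1.78 with L-DOPA (1.30 ± 0.29, adjusted p = 0.108). Angpt2, an angiopoietin that loosens vessels, was at -4.60, -4.98 and -5.01 with saline and at -3.62, -2.09 and -2.26 with L-DOPA (2.20 ± 0.55, adjusted p = 0.137). Adm, the vasodilator adrenomedullin, was at -2.87, -2.53 and -2.75 with saline and at -1.89, -0.84 and -1.32 with L-DOPA (1.36 ± 0.28, adjusted p = 0.080). In each of the 3 genes the groups lay apart, as they did in 22.6% of all features. Mural cell genes had 5 of 11 values above 0 and a median of -0.01. Meningeal and fibroblast genes had 11 of 13 and a median of 0.33, and blood cell genes had 6 of 6 and a median of 0.75, both with none called and 1 at an unadjusted p under 0.05. Their medians were -0.15 and 0.03 within slide 1 and 1.06 and 1.46 within slide 2, and their part in the values above was not tested.

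Neuropeptide precursors had 14 of 19 values above 0, with 1 called and a median of 0.57. Of the 19, 6 had an unadjusted p under 0.05 with a higher level, beside 5.99% of all features. Trh, the thyrotropin-releasing hormone precursor, was at -2.95, -3.29 and -3.57 with saline and at -1.56, 0.47 and -0.08 with L-DOPA. Its groups lay apart, as in 22.6% of all features, but it was not called (2.88 ± 0.70, adjusted p = 0.130). Vgf, a secretory granule protein, was at 4.15, 3.57 and 4.12 with saline and at 4.51, 5.11 and 4.59 with L-DOPA. Scg2, a secretogranin, had a value of 0.83 ± 0.33 and Tac3, the neurokinin B precursor, of 0.86 ± 0.33.

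Late activity-response genes, which follow the first transcription factors, had 13 of 18 values above 0, none called and a median of 0.36. Of the 18, 6 had an unadjusted p under 0.05 with a higher level, beside 5.99% of all features. Within slides 1 and 2 the median was 0.53 and 0.22. Nptx1, a pentraxin of excitatory synapses, was at -1.09, -0.98 and -1.57 with saline and at 0.64, 0.24 and -0.18 with L-DOPA (1.45 ± 0.29, adjusted p = 0.074). Crem, whose products bind cyclic AMP elements, was at -1.24, -1.14 and -1.12 with saline and at -0.40, 0.45 and -0.33 with L-DOPA (1.07 ± 0.22, adjusted p = 0.077). In Nptx1, which also stands in the cortical list, the highest array was L-DOPA replicate 1, and the part of cortical tissue was not tested.

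Immediate-early genes, which neurons transcribe within minutes of stimulation, were divided. Of 27 tested, 16 had values above 0; 2 were called, both lower, and the median was 0.02. An unadjusted p under 0.05 was reached by 4 with a higher and 5 with a lower level, beside 5.99% and 5.29% of all features. Fosb and Junb were not matched to a probe and are not analysed here. Fos itself was at -2.78, -3.11 and -2.66 with saline and at -4.19, -2.99 and -3.21 with L-DOPA, Egr1 had a change of 0.02 ± 0.31, and Arc, a synaptic plasticity gene, of 0.00 ± 0.27, all 3 with overlapping groups and named as standard markers outside the rule. Gadd45b, a stress-induced growth arrest gene, was at 0.43, 0.34 and 0.59 with saline and at 0.85, 1.51 and 1.43 with L-DOPA. Fosl2, a Fos family member, was at -3.83, -4.12 and -3.85 with saline and at -4.66, -4.97 and -4.81 with L-DOPA (-0.88 ± 0.19, adjusted p = 0.097). Its second probe, which passed the filter, differed by -0.38. Among MAP kinase phosphatases and related feedback genes 6 of 12 had values above 0 and none was called. Of the 12, 3 had an unadjusted p under 0.05 with a higher and 1 with a lower level (33.3%, beside 11.3% of all features). Dusp6, which dephosphorylates ERK, was at 0.46, 0.54 and 0.22 with saline and at 0.85, 1.35 and 1.61 with L-DOPA, while Dusp1 was at -4.43, -3.72 and -4.12 with saline and at -4.83, -4.94 and -5.22 with L-DOPA. The 2 phosphatases thus differed in opposite directions, with changes of 0.86 ± 0.21 and -0.90 ± 0.25.

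The called immediate-early genes were the Krüppel-like factors Klf2 and Klf4, zinc finger transcription factors known from endothelium and stem cells. Klf2 was at -3.51, -3.57 and -3.25 with saline and at -5.21, -5.15 and -4.84 with L-DOPA (-1.62 ± 0.19, adjusted p = 0.012). Klf4 was at -1.71, -2.24 and -1.86 with saline and at -3.28, -3.37 and -3.22 with L-DOPA (-1.36 ± 0.16, adjusted p = 0.012). In both genes the 3 L-DOPA arrays lay close together, and L-DOPA replicate 1 did not stand nearer to saline. Within slides 1 and 2, Klf2 differed by -1.70 and -1.58, and Klf4 by -1.57 and -1.13. With Ttr as a covariate the change of Klf2 was -1.79 ± 0.23. Of 12 Krüppel-like factors tested 5 had values above 0, 2 were called, both lower, and the median was -0.10. Among the 12, 4 had an unadjusted p under 0.05 with a lower level, beside 5.29% of all features. Klf15 and Klf13 had values of -0.52 ± 0.19 and -0.41 ± 0.18, and Klf10 of 0.74 ± 0.34, without being called.

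Gdnf and Slc16a1 fell as well. Gdnf, the glial cell line-derived neurotrophic factor that supports dopamine neurons, was at -3.96, -4.44 and -4.06 with saline and at -5.24, -6.31 and -5.63 with L-DOPA (-1.58 ± 0.27, adjusted p = 0.042). Ret, the signalling receptor of GDNF, was at -4.99, -5.23 and -6.23 with saline and at -5.72, -6.49 and -7.26 with L-DOPA, and the groups overlapped. Of 14 neurotrophic factors and receptors 6 had values above 0, 1 was called and the median was -0.09. Among the 14, 2 had an unadjusted p under 0.05 with a lower level, beside 5.29% of all features. Slc16a1, the lactate carrier MCT1, was at -1.17, -1.39 and -1.42 with saline and at -3.00, -2.80 and -3.75 with L-DOPA (-1.86 ± 0.30, adjusted p = 0.034). Slc16a3, the lactate carrier MCT4, was at -2.20, -2.30 and -2.28 with saline and at -1.53, -0.71 and -1.26 with L-DOPA, not called (1.09 ± 0.36). Of all 22 genes of glucose and lactate handling tested, both carriers included, 15 had values above 0, only Slc16a1 was called and the median was 0.10. Among the 22, 2 had an unadjusted p under 0.05 with a higher and 2 with a lower level (18.2%, beside 11.3% of all features). Aldoc, the astrocyte aldolase, had a value of -0.70 ± 0.21 and Eno1, an enolase, of 0.67 ± 0.28. A second probe of Aldoc that passed the filter differed by -0.18.

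Presynaptic proteins held 2 called falls. Tspoap1, a scaffold of the active zone, was at 3.06, 3.13 and 3.30 with saline and at 2.25, 2.01 and 1.42 with L-DOPA (-1.27 ± 0.22, adjusted p = 0.045). Svop, a synaptic vesicle transporter-like protein, was at 0.25, 0.16 and -0.39 with saline and at -0.94, -1.30 and -1.06 with L-DOPA (-1.11 ± 0.19, adjusted p = 0.041). Of 27 genes of vesicles and release 13 had values above 0, these 2 were called and the median was -0.03. The list as a whole therefore stood at the median of all features. The remaining called falls were Igsf7 l1, at -3.71, -3.71 and -3.82 with saline and -5.90, -5.95 and -6.62 with L-DOPA (-2.41 ± 0.24, adjusted p = 0.0064), Nat8f1, an acetyltransferase family member (-1.35 ± 0.18), and Alk, a receptor tyrosine kinase (-0.89 ± 0.16).

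Retinoid and Wnt genes beside Gprc5a and Wnt10a differed less. Of 19 retinoid genes 11 had values above 0 and 1 was called. An unadjusted p under 0.05 with a higher level was reached by 6, beside 5.99% of all features. The median was 0.11, with -0.01 within slide 1 and 0.43 within slide 2. Aldh1a1, a retinaldehyde dehydrogenase that also marks some dopamine neurons, was at -1.03, -0.32 and -0.78 with saline and at 0.39, 0.72 and 0.82 with L-DOPA (1.35 ± 0.29, adjusted p = 0.090). Rara, a retinoic acid receptor, had a value of 0.94 ± 0.22. Ttr, which carries retinol-binding protein, belongs to this list too. Of 20 Wnt ligands and targets 14 had values above 0, 1 was called and the median was 0.18. Wnt11 was at -4.10, -4.05 and -3.78 with saline and at -3.05, -2.62 and -2.16 with L-DOPA, a value of 1.36 ± 0.30 with an adjusted p = 0.099.

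No stress gene tested was called, and Hspa1a, Hspa1b, Dnajb1, Chac1 and Manf were not matched to a probe. Of 17 genes of the endoplasmic reticulum and heat shock response 14 had values above 0 and none was called (5 at an unadjusted p under 0.05, or 29.4%, beside 11.3% of all features), and the median was 0.13. Creld2, a chaperone-like protein induced by that stress, had a value of 0.65 ± 0.15 and Pdia4, a disulfide isomerase, of -1.46 ± 0.41. Glucocorticoid-responsive genes had 7 of 14 values above 0, 3 at an unadjusted p under 0.05 (21.4%) and a median of -0.03. Sgk1, a kinase of that response, was at 0.11, 0.46 and 0.43 with saline and at -0.70, -0.58 and -1.65 with L-DOPA (-1.31 ± 0.26, adjusted p = 0.077). Oligodendrocyte genes had 8 of 16 values above 0 and a median of 0.00, ependymal genes 8 of 17 and -0.03, and dopamine-handling genes 4 of 11 and -0.12, none called.

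**Figure D5:**
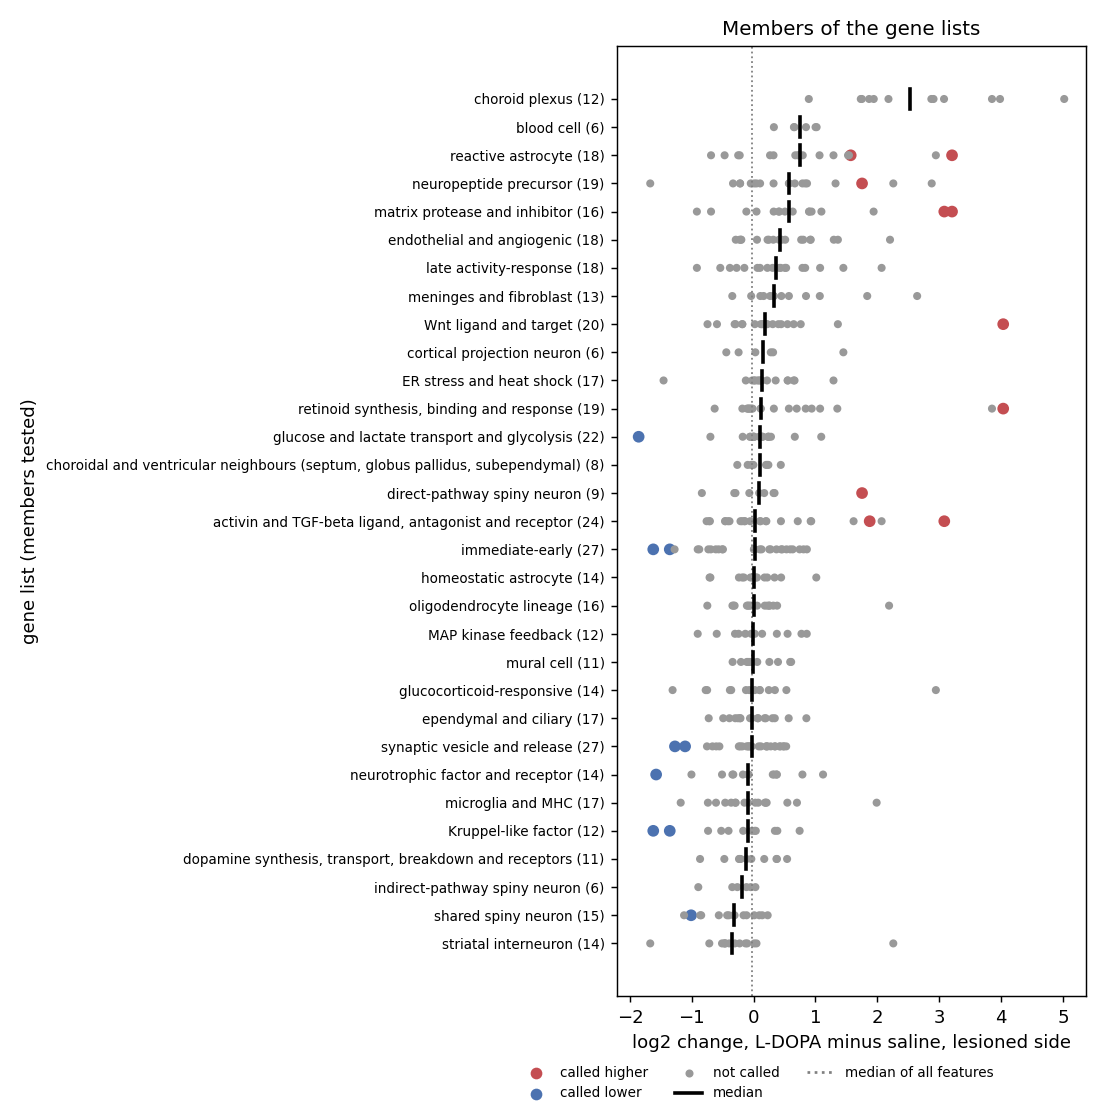
Each row is a gene list, with the number of members tested in brackets. Points are the log2 changes of its members (L-DOPA minus saline), coloured where called, black bars are medians and the dotted line is the median of all features (-0.03). The choroid plexus list has the highest median (2.53) with no member called, and the striatal interneuron list the lowest (-0.35).

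The called features had other levels on the arrays outside the comparison. The median level of the 70 higher features was -3.78 on the non-lesioned side, -3.86 with saline, -2.14 with L-DOPA and -3.74 with L-DOPA and zonisamide. For the 21 lower features the 4 medians were -3.11, -1.93, -3.52 and -3.27. Feature by feature, the mean of the zonisamide group lay nearer to saline than to L-DOPA in 64 of the 70 higher and 16 of the 21 lower features, and that of the non-lesioned side in 66 and 17. Since the features were chosen for the difference between saline and L-DOPA, these levels are a description. Pdyn had a mean level of 3.11 on the non-lesioned side, 2.43 with saline and 4.18 with L-DOPA. Klf4 had a mean of -2.34 on the non-lesioned side and -3.22 with both drugs, beside the L-DOPA values above.

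Of the 91 called features 45 have no symbol in the tables used. The largest change of all was in 1 of these, the probe A_44_P608485, with a value of 6.12 ± 0.85 (adjusted p = 0.020). The largest fall was in the probe A_44_P335974, which was not above background on any L-DOPA array. By the ratio used for Cimap2, here with the L-DOPA values raised, it was 9.52-fold lower with L-DOPA. Its adjusted p of 0.015 (limma) belongs to the fitted change of -3.26 and not to this ratio.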

How the data were processed

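Agilent single-colour arrays were scanned by the authors, and Agilent Feature Extraction (10.7 per the submitters' processing notes, 10.7.3.1 per the file headers) gave a processed signal, an intensity with the background subtracted, per the file headers. The authors' deposited combined table of intensity values held the same numbers. Of 62976 spots, 4259 were controls and were left out, as were outlier spots. Spots of each of the 30367 probes were averaged. From the deposited intensity, log2 values minus each array's 75th percentile were computed, with no pseudocount. Symbols came from RefSeq (GRCr8), with which 17328 probes matched 1 symbol and 13039 none. The probes were designed on an older assembly, so no probe coordinates are given.

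The filter left 21354 probes and 19315 features (11025 with a symbol). limma 3.58.1 in R 4.3.3 was fitted to all 12 arrays with 4 groups (8 residual degrees of freedom), with the package data.table (version 1.17.8) for reading. P values are two-sided and adjusted by Benjamini-Hochberg over all features. The fit was tested on simulated data. The number of arrays limits the precision: the smallest p that an exact permutation of 3 against 3 arrays allows is 0.1, and no such test was run. Same-numbered L-DOPA and saline arrays had deviations from their group means that correlated at 0.194, -0.116 and -0.0239. With 3 arrays per group these values cannot decide whether the numbers pair the arrays, which were treated as unpaired. The labels do not tie an array to an animal beyond 3 animals per group.

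The arrays, gene lists and naming rule were chosen with earlier results of these data known. The rule names up to 30 called rises and 15 called falls with a symbol by size, Pdyn, Penk, Tac1, Drd1, Drd2 and Th, and the 2 to 5 members of a list with the smallest p. The 6 smaller called rises, Tap2, Slfn2, Lmo1, C1galt1, Nmnat2 and Ggact, and Ppp1r1b, Gfap and the genes marked so in the text fall outside it. Some genes that the rule names are left out here. The alternatives were other scalings, background corrections, filters, probe summaries, variance models, blocks and left-out arrays.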

Additional observations from a re-analysis of the deposited data

How the results depend on the processing

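The number of called features, 91 as reported, was 34 with normexp background correction and quantile normalization. It was 47 without a filter on dim probes, 55 with a filter on all 6 arrays and 416 with array weights. With the replicate number as a block the number was 33, and whether the replicate numbers pair arrays is not known. It was 0 with only the 6 arrays, 0 with the slide as a fixed block and 0 with Ttr as a covariate (limma; 2587, 1646 and 1155 features at an unadjusted p under 0.05). Without the arrays whose repeated spots spread by over 20%, 1 was called, and it was not among the 91 (1862 at an unadjusted p under 0.05). Leaving out each of the 6 arrays in turn gave 7 to 211. Quantile normalization gave 80, a filter over the 4 groups 82, the mean of a gene's probes 104, an intensity trend with a robust prior 76 and the slide as a random block 109. The share of calls that were higher was 76.9% as reported, 88.2% with normexp and 66.7% with the replicate block, and 40% to 76% with an array left out. None of the 46 called genes with a symbol changed direction under these settings. Their groups lie apart because of how they were chosen, so settings that only leave out arrays could not reverse a direction. Igsf7 l1 remained called in 15 of 19 settings, Cimap2 and Meox1 in 14 of 19, Pdyn and Sntg2 in 13 of 20, and Klf2 and Klf4 in 12 of 20, while Spata31d1 did in 3 of 20. Of 31 gene lists, 15 had a median of the same sign in all settings and 16 did not. The median of the choroid plexus list was -0.42 with Ttr as a covariate, beside 2.53 as reported. The cause of these changes was not tested. The fits with only the 6 arrays, with the slide as a fixed block and without the arrays of wide spot spread each had 4 residual degrees of freedom, against 8 as reported. Ratios to levels near background, as in the 7 called genes that no saline array measured, depend on the processing and are not strict bounds.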
